A study of Homo sapiens with 48 samples.

Results

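The translation efficiency (TE) of mRNAs was followed after induction of an shRNA against EIF2B1, the gene of the alpha subunit of eIF2B, in SW480 cells, a human colorectal cancer (CRC) line with mutant APC. Of the 48 libraries in the series, 32 make up this comparison, from 16 lysates of a non-targeting line (shCTRL) and a line with shEIF2B1. The other 16, of a line with shEIF2B4 against the delta subunit, kept without and with DOX in the same way, are set beside it at the end. They were chosen by line, not by any measured value. Both lines are pools of selected cells with a lentiviral, doxycycline (DOX)-inducible shRNA, so each knockdown rests on 1 shRNA and 1 pool. The 4 groups are shCTRL -DOX and shEIF2B1 -DOX, kept with DMSO, and shCTRL +DOX and shEIF2B1 +DOX, kept with 1 µg/ml DOX, in every case for 5 days. Each group has 4 replicates, made in 4 separate weeks. From every lysate, ribosome-protected fragments (RPFs), counted on the coding sequence (CDS), and total cytoplasmic RNA were sequenced. The deposited values are on a log2 scale, and log2 TE is the RPF value minus the total RNA value of the same lysate. It could be formed for the 10836 genes present in both tables, out of 11145 genes in the RPF table and 11947 in the total RNA table. The TE response of a gene is its change upon DOX in shEIF2B1 minus its change upon DOX in shCTRL. The question is which mRNAs carried more or fewer ribosomes per copy upon loss of the subunit.

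eIF2B recharges eIF2 with GTP, which eIF2 needs to bring the initiator tRNA to the ribosome. Phosphorylated eIF2 blocks eIF2B, and the alpha subunit, which forms a homodimer at the core of the complex, takes part in sensing it. When little active eIF2 is available most mRNAs are initiated less often, while a few mRNAs with upstream open reading frames (uORFs), among them the one for the transcription factor ATF4, are translated better. Together this is the integrated stress response (ISR). Each library is scaled for its depth, RPFs and total RNA apart, so a change shared by all mRNAs cannot be seen in log2 TE. A response tells how an mRNA moved relative to the others. A lysate also averages over all its cells, so a change in every cell and a larger change in some of them cannot be told apart.

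The libraries were first checked against their labels. EIF2B1 lay between 8.19 and 8.38 (log2 total RNA) in shEIF2B1 -DOX and between 7.10 and 7.68 in shEIF2B1 +DOX. In shCTRL the 8 values ran from 8.10 to 8.66, so the induced shEIF2B1 lysates were the lowest of all 16. The total RNA response of EIF2B1 was -0.67 (limma adjusted p = 0.0263) and its RPF response -0.53 (limma adjusted p = 0.0109). Its TE response was 0.14 ± 0.15 (standard error), which did not pass the test (limma adjusted p = 0.614). None of the other subunits passed in TE, with responses of 0.16 for EIF2B2, -0.14 for EIF2B3, -0.09 for EIF2B4 and -0.01 for EIF2B5. Of 10 markers of colorectal epithelium 6 are in the total RNA table, with mean values from 4.18 for CDH1 to 13.4 for KRT18, and VIL1, CDX1, TSPAN8 and LGALS4 are not listed. None of 8 blood and immune markers and none of 8 fibroblast and endothelial markers is listed.

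Upon induction of shEIF2B1, 769 of the 10836 genes passed the test in TE (7.1% of those tested, limma adjusted p under 0.1), 322 of them higher (2.97%) and 447 lower (4.13%). The changes were moderate. The median response was 0.57 among the higher genes and -0.61 among the lower ones, with a median standard error of 0.17, and only 3 genes rose and 8 fell by 1 or more on the log2 scale. The direction was the same in 4 of 4 weeks for 736 of the 769 genes, 303 higher and 433 lower. The week of the replicate is a block in this fit, and without the block limma called 0 genes (280 with an unadjusted p under 0.05). Single weeks also carried the count. It was 0 without replicate 1 (1416 with an unadjusted p under 0.05), 1366 without replicate 2, 43 without replicate 3 and 20 without replicate 4. With each library centred on its own median the calls were 440 higher and 332 lower, since this moved the median response of all genes from -0.02 to 0.03, and directions of small responses are therefore relative to the scaling.

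Of the mRNAs with uORFs that are known to be translated in the ISR, ATF4, DDIT3 and ATF5 rose in TE. ATF4, the central transcription factor of the ISR, had a log2 TE of -3.01, -2.88, -2.95 and -3.23 in shCTRL -DOX (replicates 1 to 4) and of -2.85, -2.87, -2.41 and -2.74 in shCTRL +DOX. In shEIF2B1 it was -3.02, -3.34, -2.99 and -3.25 before and -2.04, -2.43, -1.76 and -1.86 after induction. The induced shEIF2B1 lysates were above each lysate of the other groups except replicate 3 of shCTRL +DOX, which lay just above replicate 2 of shEIF2B1 +DOX. The TE response of ATF4 was 0.83 ± 0.19 (limma adjusted p = 0.0323), and it came from RPFs, which rose by 1.02, while total RNA, at 0.19, did not pass its test. DDIT3, which encodes the stress factor CHOP, rose by 0.58 ± 0.18 in TE (limma adjusted p = 0.0741). Its RPFs rose by 1.49 and its total RNA by 0.91, so that both measures moved. ATF5, a relative of ATF4, rose by 0.62 ± 0.20 in TE (limma adjusted p = 0.081), again with higher total RNA (0.99).

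These 3 are the called genes among the 10 measured members of the list of 11 such mRNAs. Over all genes 2.97% were called higher and 4.13% lower, so no lower call among 10 genes says little. The median response of the list was 0.32 against -0.02 for all genes. PPP1R15A, which encodes the eIF2 phosphatase cofactor GADD34 and has uORFs of its own, had a TE response of 0.34 ± 0.14 that did not pass (limma adjusted p = 0.18), although its RPF response of 1.08 and its total RNA response of 0.74 both passed. ATF3, a stress-induced transcription factor, had a TE response of -0.35 ± 0.25 and did not pass either (limma adjusted p = 0.452). Among 36 measured targets of ATF4 and CHOP 3 were called higher (8.33%, against 2.97% of all genes) and none lower (against 4.13%). They are TRIB3, a pseudokinase that restrains AKT, with 0.80 ± 0.14, GDF15, a secreted stress cytokine, with 0.75 ± 0.19 (higher in 3 of 4 weeks), and CEBPB with 0.48. In this list 14 members were called higher in total RNA and 21 in RPFs, where 241 and 1270 of all 10836 genes were. In log2 TE, TRIB3 stood at 0.08, -0.40, -0.13 and -0.70 in shEIF2B1 -DOX and at 0.90, 0.12, 0.57 and -0.06 after induction, higher within each week although the groups overlap.

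**Figure D1:**
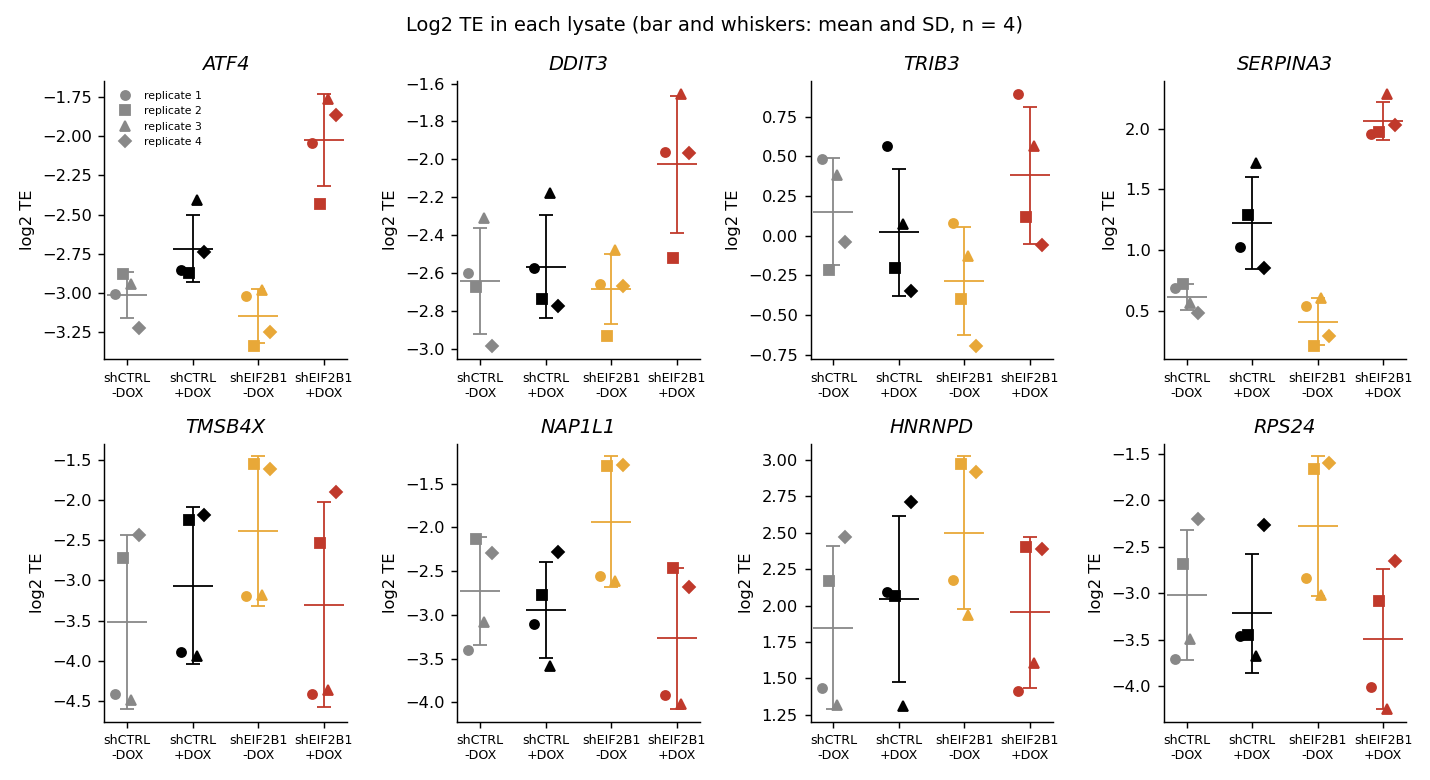
Log2 TE of 8 genes in each of the 16 lysates, by group on the x axis, with symbols for the replicates and the mean and SD of 4 lysates. In ATF4 and SERPINA3 the induced shEIF2B1 lysates lie high, and in TMSB4X, NAP1L1, HNRNPD and RPS24 the uninduced shEIF2B1 lysates are the ones that lie high.

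The largest rise in TE was that of LCN2, the secreted siderophore-binding protein lipocalin 2. Its log2 TE was 0.96, 0.13, 0.75 and 0.63 in shEIF2B1 -DOX and 1.94, 2.03, 1.83 and 2.24 in shEIF2B1 +DOX, and between 0.44 and 1.46 in the 8 shCTRL lysates. The induced lysates did not overlap with any other group. The response was 1.11 ± 0.22 (limma adjusted p = 0.0226), on top of a rise of 2.77 in total RNA. SERPINA3, the secreted protease inhibitor alpha-1-antichymotrypsin, rose by 1.05 ± 0.17 (limma adjusted p = 0.0117). Its log2 TE of 1.96 to 2.29 in shEIF2B1 +DOX was above each of the other 12 lysates, which reached 1.72. In shCTRL its log2 TE was 1.22 ± 0.38 with DOX and 0.61 ± 0.11 without (SD, n = 4), and the response subtracts this difference.

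ATP6V0C, the membrane ring subunit of the proton-pumping V-ATPase, rose by 1.03 ± 0.28 with no movement of its total RNA (0.00), but by only 0.18 in replicate 4 against 1.63 in replicate 3. The next were ALOX12B, an epidermal lipoxygenase, with 1.00, GPR1, a receptor for the chemoattractant chemerin, with 0.99, and DERPC with 0.94. The CDS annotated for the DERPC transcript has only 39 bases, so its value is uncertain. SLC26A4, the anion exchanger pendrin, rose by 0.94 and HID1, a protein of secretory granule formation, by 0.93. ABCG1, a cholesterol exporter, rose by 0.92, the sodium-proton exchanger SLC9A3 by 0.92, the interferon regulatory factor IRF7 by 0.90 and the AT-hook transcription factor AKNA by 0.89. Of these 12 genes 7 were also called higher in total RNA, namely LCN2, SERPINA3, GPR1, SLC26A4, HID1, ABCG1 and AKNA. SERPINA3, IRF7, HID1 and ALOX12B are low genes, with a mean log2 total RNA of 3.55, 3.32, 3.65 and 4.02 in shCTRL -DOX. The lowest value of the table was 2.80, and regularization shrinks differences of low genes most. The TE response of IRF7 also ran from 0.10 in replicate 2 to 1.62 in replicate 1.

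Among the falls, TMSB4X, which encodes the actin-binding peptide thymosin beta 4, had the smallest p. Its log2 TE was -3.20, -1.55, -3.19 and -1.61 in shEIF2B1 -DOX and -4.41, -2.53, -4.36 and -1.90 after induction, lower in each week. The weeks differed more than the groups, with replicates 1 and 3 lower than replicates 2 and 4 in all 4 groups. The response was -1.36 ± 0.19 (limma adjusted p = 0.003). NAP1L1, a histone chaperone, fell by 1.12 ± 0.21 in TE (limma adjusted p = 0.0184), from -2.56, -1.30, -2.62 and -1.28 to -3.91, -2.47, -4.02 and -2.68 in shEIF2B1. SSB, the La protein that binds the ends of RNA polymerase III transcripts, fell by 1.02, and RPS24, a protein of the small ribosomal subunit, also by 1.02. TMEM123 fell by 1.00, the prefoldin subunit PFDN1 by 1.00, the spliceosomal Sm protein SNRPE by 0.99 and the heat shock protein HSPH1 by 0.98. In all of these the RPFs fell, with responses from -0.71 in TMEM123 to -1.35 in HSPH1, and total RNA did not pass its test. For RPS24, replicate 4 of shCTRL +DOX stood apart, at -2.27 against -3.68 to -3.45.

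The other 4 of the 12 largest falls differ in what moved. MFAP1, a splicing factor, had the largest one (-1.37 ± 0.32, limma adjusted p = 0.0366), with an RPF response of -0.87. Its total RNA, at 12.7 in replicate 3 of shCTRL -DOX against 10.8 in replicates 1 and 2, was uneven between weeks. ZNF485, a zinc finger gene, fell by 1.03 with higher total RNA (0.95) and an RPF response of -0.08, and its replicate 3 of shCTRL -DOX stood apart, at -8.57 against -7.42 to -7.30. The read-through genes RP11-16N10.2 and ANKHD1-EIF4EBP3 were called at -1.33 and -1.07. They share exons with their neighbours, and the responses of -2.99 and -2.76 in replicate 2 were far from those of the other weeks, so both are uncertain. Reads of TMSB4X and of ribosomal protein genes can also be shared with near-identical copies elsewhere in the genome.

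Since responses were graded by the base composition of the whole CDS, as described further on, the first 30 codons of 6 genes are shown, 5′ to 3′, with a G or C at the third position of a codon in capitals. They are the 3 largest rises and the 3 largest falls outside read-through genes, as annotated in GENCODE 29 on GRCh38.
LCN2: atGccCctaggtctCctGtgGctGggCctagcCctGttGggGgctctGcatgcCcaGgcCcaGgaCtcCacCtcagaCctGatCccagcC
SERPINA3: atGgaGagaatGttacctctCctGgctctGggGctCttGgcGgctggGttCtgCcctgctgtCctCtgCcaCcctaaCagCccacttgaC
ATP6V0C: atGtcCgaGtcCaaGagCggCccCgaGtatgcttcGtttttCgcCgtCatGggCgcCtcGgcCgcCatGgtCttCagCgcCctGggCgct
MFAP1: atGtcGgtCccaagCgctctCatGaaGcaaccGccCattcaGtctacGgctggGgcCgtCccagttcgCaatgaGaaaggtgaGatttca
TMSB4X: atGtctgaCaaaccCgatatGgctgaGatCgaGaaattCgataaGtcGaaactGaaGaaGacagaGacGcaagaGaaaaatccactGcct
NAP1L1: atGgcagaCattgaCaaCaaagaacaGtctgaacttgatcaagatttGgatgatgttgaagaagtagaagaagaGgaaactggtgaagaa

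Over the whole CDS, the share of codons that end in G or C (GC3) is 70.7% in LCN2, 69.5% in SERPINA3 and 86.5% in ATP6V0C, and 47.4% in MFAP1, 54.5% in TMSB4X and 30.2% in NAP1L1. The genes lie on the plus strand at chr9:128149071-128153455 (LCN2), chr14:94612377-94624055 (SERPINA3), chr16:2513870-2520218 (ATP6V0C) and chrX:12975108-12977227 (TMSB4X), and on the minus strand at chr15:43804492-43824802 (MFAP1) and chr12:76036587-76085033 (NAP1L1). Within the 30 codons printed, 23 end in G or C in LCN2, 20 in SERPINA3 and 26 in ATP6V0C, and 17 in MFAP1, 17 in TMSB4X and 7 in NAP1L1. Over this stretch MFAP1 and TMSB4X were therefore close to SERPINA3.

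TE can change because RPFs moved, because total RNA moved, or both. Of all genes in both tables, 27.3% were called in RPFs and 3.45% in total RNA. Among the TE calls, 244 of the higher and 383 of the lower genes were called in RPFs only. SERTAD1, a cell cycle regulator, rose by 0.81 in TE with a total RNA response of -0.03, and YDJC by 0.78 with -0.17. A further 30 higher and 12 lower genes were called in both measures, always with total RNA moving the same way as TE. In the 30 higher ones, the median RPF response was 1.51 and the median total RNA response 0.80. HNRNPA2B1, with -1.38 in RPFs and -0.62 in total RNA, and NCL, the nucleolar protein nucleolin, with -1.37 and -0.55, are the 2 lower genes of this kind with the smallest p. Only 3 higher and 18 lower genes were called in total RNA and not in RPFs. FAN1, a nuclease of crosslink repair, was one of the 3, with a TE response of 0.51 and a total RNA response of -0.44, and PTPRZ1, a receptor phosphatase, one of the 18, with -0.59 and 0.45. The remaining 45 higher and 34 lower genes passed in TE alone, among them BIRC5, RNF43, COL13A1, COX8A and LARS1. In the 45 the median RPF response was 0.28 and the median total RNA response -0.24, and in the 34 they were -0.27 and 0.29. Neither measure passed its own test in these genes.

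**Figure D2:**
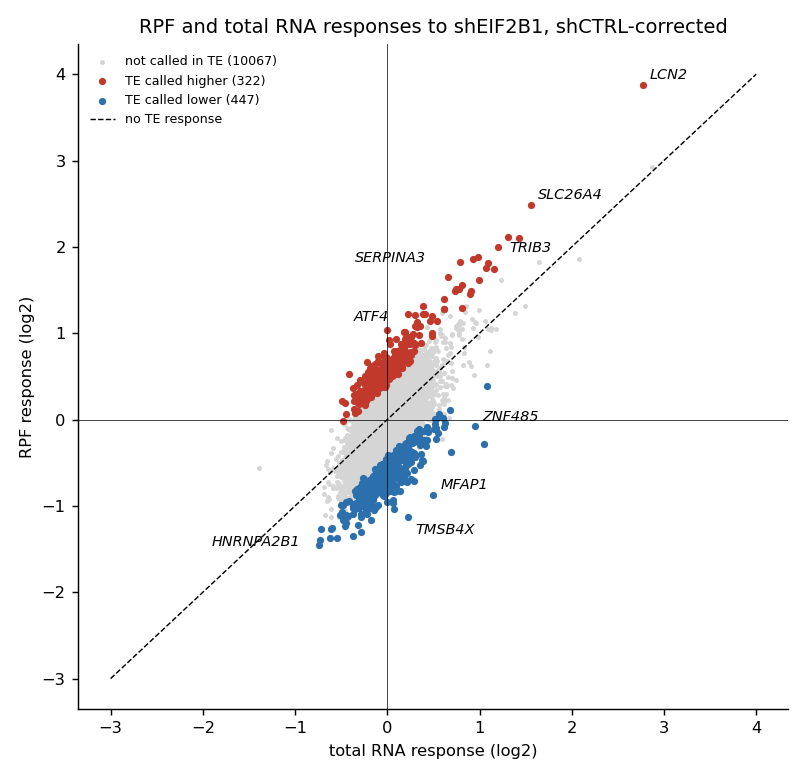
RPF response against total RNA response to shEIF2B1 (log2) for all 10836 genes, with the 322 genes called higher in TE in red, the 447 called lower in blue and a dashed line where both responses are equal. Most calls spread along the y axis near a total RNA response of 0, and LCN2 has the highest RPF response.

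Genes were next grouped by function, and the share of each list called is set beside 2.97% higher and 4.13% lower over all genes. For falls in lists of low GC3 the share over all genes is a low yardstick. Of the 10 bins of GC3 described further on, bin 1, the lowest, had 148 of 1056 genes called lower. In bin 2 the share was 11.6% and in bin 3 it was 5.88%. Median GC3 was 41% in kinetochore and spindle genes, 43.9% in hnRNP proteins and 44.1% in chaperones. The hnRNP proteins, which package and splice pre-mRNA, had 8 of 21 measured members called lower and none higher, and a median response of -0.41 against -0.02 for all genes. This group was singled out by the study on these same libraries, so its count is not independent evidence. HNRNPA2B1 fell by 0.76 ± 0.17, HNRNPD by 0.74 ± 0.19, HNRNPA1 by 0.66 and HNRNPA3 by 0.49 ± 0.16 (limma adjusted p = 0.0323 for the first). When libraries were centred, 4 members were called lower. HNRNPD, an mRNA decay factor also known as AUF1, had a log2 TE of 2.17, 2.98, 1.93 and 2.92 in shEIF2B1 -DOX and of 1.41, 2.41, 1.61 and 2.39 after induction, lower in each week, while the 8 shCTRL values ran from 1.31 to 2.71. Its response ranged from -1.42 in replicate 1 to -0.32 in replicate 3. Helicases of the DEAD and DEAH families had 6 of 45 members called lower, led by DHX9 with -0.70 and DDX46 with -0.63, and of 11 SR splicing factors 1, SRSF10, fell.

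Translation factors outside the eIF2 group had 9 of 43 measured members called lower and none higher, with a median of -0.26 (5 of 43 with centred libraries). EIF3M and EIF3A, subunits of the initiation factor eIF3 that joins the small ribosomal subunit, fell by 0.84 and 0.66. The poly(A)-binding protein PABPC1 fell by 0.88, and EIF5B, which helps subunits to join, by 0.69. The transcript used for PABPC1 has an annotated CDS of only 354 bases and a 3′ untranslated region of length 0. Its value may therefore not stand for the gene. In the list of eIF2, eIF2B and eIF2 kinases 2 of 15 were lower, EIF2AK2 (the kinase PKR) with -0.81 and EIF2S1 (the alpha subunit of eIF2 itself) with -0.61. Ribosomal proteins had 3 of 47 large subunit (6.38%) and 3 of 34 small subunit genes (8.82%) lower, against 4.13% of all genes, and medians of -0.15 and -0.08. Their weekly medians ranged from -0.40 to 0.06 and from -0.32 to 0.26, and without replicate 2 the counts were 10 and 6. For the large subunit the median change in log2 TE upon DOX was -0.55 in shEIF2B1 and -0.43 in shCTRL. Of 75 mitochondrial ribosomal proteins 3 were higher, such as MRPL34 with 0.59, and 3 lower, such as MRPS33 with -0.86, which is 4.00% each way and near the shares of all genes. Aminoacyl-tRNA synthetases of the cytosol had 2 of 20 lower, FARSB and LARS1 with -0.51 and -0.46.

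Of 61 kinetochore and spindle genes 10 were lower and 1 higher, with a median TE response of -0.26. In this list 26 members were called lower in total RNA and 46 in RPFs, where 133 and 1683 of all 10836 genes were. The spindle checkpoint kinase TTK fell by 0.72 in TE and by 0.74 in total RNA, the condensin subunit SMC2 fell by 0.71 in TE, and BIRC5, the chromosomal passenger protein survivin, rose by 0.64. Of 48 kinesin and dynein genes 6 fell and 1 rose, among them KIF2A with -0.70 and KIF11 with -0.66, and 3 of the 6 (KIF11, KIF23 and KIF15) are also in the spindle list. DNA replication factors had 5 of 47 lower, with ORC4 at -0.86 and ORC2 at -0.60, both subunits of the origin recognition complex.

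Chaperones and the proteasome had 5 lower members each and none higher, out of 28 and 45. HSPH1 led the chaperones, followed by DNAJA2 with -0.68. PSMA3 and PSMD14 led the proteasome with -0.84 and -0.68, but the list's median of -0.02 was that of all genes, and it was 0.02 with centred libraries, where that of all genes was 0.03. Of 55 nucleoporins and transport receptors 2 fell (3.64%, near the share of all genes), KPNA2 with -0.68 and IPO7 with -0.62. Of 23 endoplasmic reticulum chaperones 1 fell, HSP90B1 with -0.59. Oxidative phosphorylation subunits went both ways, with COX8A and NDUFS8 higher by 0.66 and 0.57 and UQCRHL, ATP5PB and ATP5PF lower, of 80 in all (3.75% lower, near the share of all genes). UQCRHL is an intronless near-copy of UQCRH, so its reads are uncertain. Among 23 glycolysis genes LDHB alone was called (-0.69), and none of 26 genes of cholesterol synthesis and uptake was, where total RNA was lower for 6. The 294 zinc finger genes measured had 10 higher (3.40%) and 9 lower (3.06%), shares near those of all genes, with ZNF672 at 0.85 and ZNF277 at -0.84.

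In 4 further lists all called genes were higher, but falls were rare among all genes of high GC3. In every bin above a GC3 of 65.2%, at most 0.474% of genes were called lower and 3.61% to 8.53% higher. Median GC3 was 76.9% in histone genes and 75.9% in the NF-kappaB list. It was 69.8% in WNT genes and 62.1% in integrins, laminins and collagens. Clustered histone genes had 5 of 52 higher with a median of 0.22, among them H2AC11 with 0.79 and H2AC4 with 0.75, although these genes share much of their sequence. Their mRNAs end in a stem-loop in place of a poly(A) tail, and the total RNA libraries were made after rRNA depletion, per the study's methods. Without replicate 2, where the median was 0.02, 14 of the histone genes were higher. Immediate early genes and targets of NF-kappaB had 7 of 39 higher with a median of 0.22. Next to LCN2 these were KLF4 with 0.81, JUNB with 0.65, CEBPD with 0.64, the NF-kappaB inhibitor NFKBIA with 0.60, FOS with 0.57 and IER2 with 0.54. Of these 7, LCN2 was the only one also called in total RNA. WNT genes had 5 of 43 higher (11.6%) with a median of 0.06. They were led by the intestinal stem cell factor ASCL2 with 0.63 and by RNF43, a negative regulator of WNT receptors, with 0.61. Integrins, laminins and collagens had 2 of 26 higher (7.69%) with a median of 0.13, LAMA5 with 0.65 and COL13A1 with 0.54.

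**Figure D3:**
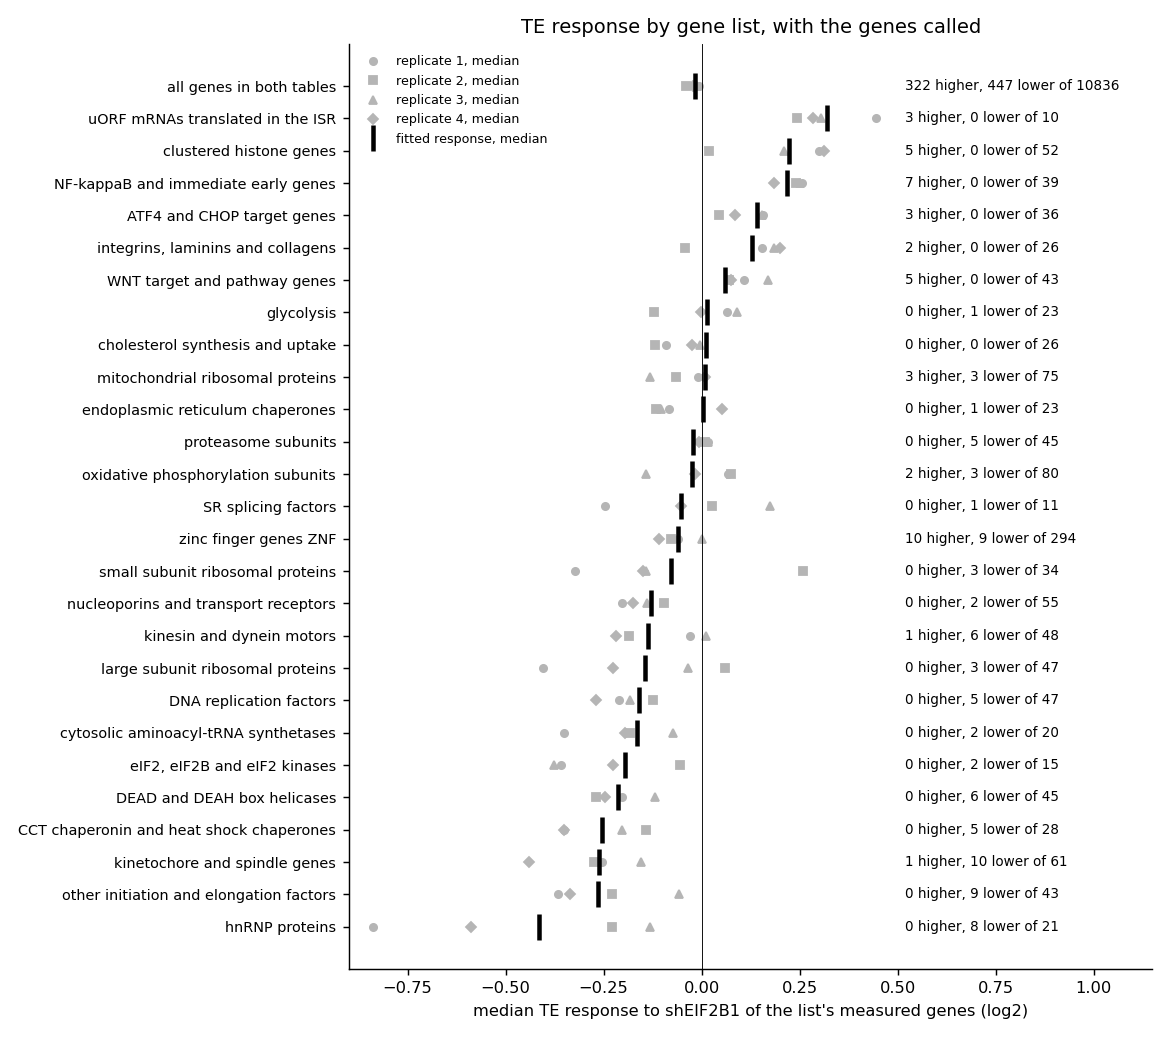
Median TE response to shEIF2B1 (log2) of all genes and of the 26 gene lists, with the fitted median as a black bar, the medians of the 4 single replicates as grey symbols, and the number of genes called higher and lower of those measured. The medians run from -0.41 for hnRNP proteins to 0.32 for uORF mRNAs, and replicate 2 lies apart from the others in ribosomal proteins and histones.

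A response is the difference of 2 changes, and both took part. The change of shEIF2B1 pointed the same way as the response in all 769 called genes, and 612 of these changes were called on their own. The change of shCTRL pointed the opposite way in 648 of them and was larger than that of shEIF2B1 in 127. Its median was -0.16 in the genes called higher and 0.18 in those called lower, against 0.41 and -0.43 in shEIF2B1. By itself the shCTRL change gave 41 calls (0.378% of genes, 17 higher and 24 lower) and 1275 genes with an unadjusted p under 0.05. That count was 253 without replicate 1, 1 without replicate 3 and 0 without replicate 2 or 4.

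The lines also differed before induction, and for the falls more than after it. In uninduced cells the TE of the 447 lower genes was already higher in shEIF2B1 than in shCTRL, by a median of 0.54, and 445 of them had this sign. In induced cells the same genes differed by a median of -0.09, and for 420 of the 447 the difference was larger in size before induction. TMSB4X was higher by 1.13 in uninduced shEIF2B1 than in uninduced shCTRL, and lower by -0.23 once both were induced. HNRNPD differed by 0.65 and -0.09, RPS24 by 0.74 and -0.28, and MFAP1 by 1.09 and -0.28. The 322 higher genes had a median difference of -0.36 before and 0.21 after induction, and 222 were further apart before. LCN2, SERPINA3 and ATF4 went against this, with -0.23, -0.20 and -0.14 before and 0.88, 0.84 and 0.70 after. Over all genes the size of the difference had a median of 0.20 before and 0.10 after induction. These genes were selected by the response, which contains both differences, so the values are a description.

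**Figure D4:**
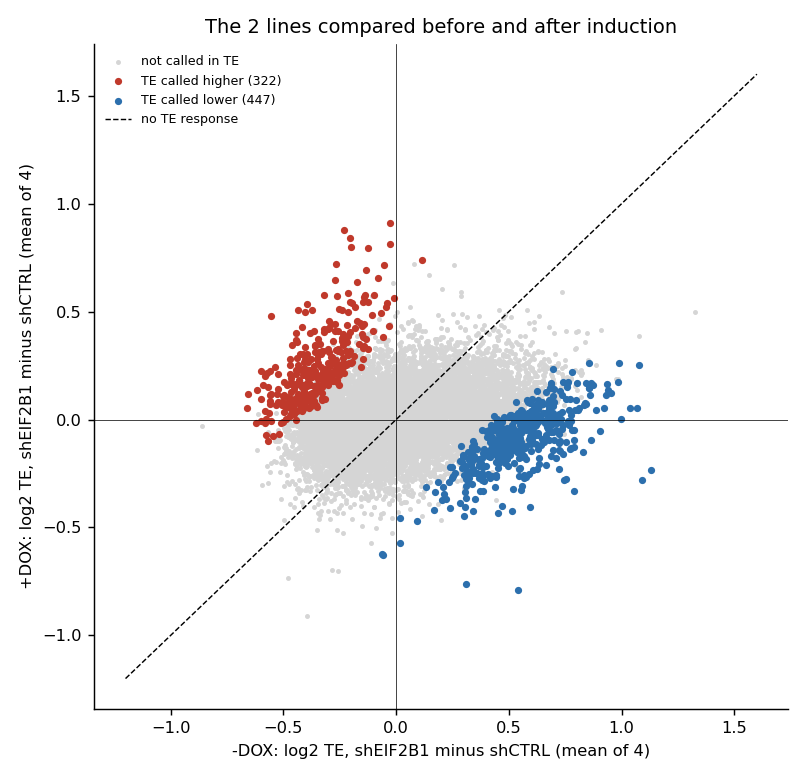
Difference in log2 TE between shEIF2B1 and shCTRL with DOX (y axis) and without DOX (x axis), each the mean of 4 lysates, for all genes in grey and the called genes in red and blue. On the dashed line the response is 0. Most genes called lower lie to the right and near 0 on the y axis, while the highest of the red genes, LCN2 among them, lie high on the y axis.

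Responses in TE were graded by the base composition of the CDS. A CDS was found in the annotation for 10548 genes (97.3%). Across them the TE response had a Pearson r of 0.62 with GC3 (Spearman rho 0.63), 0.66 with the GC content of the whole CDS and -0.45 with its share of G and A. It was 0.16 with the GC content of the 5′ untranslated region and 0.00 with CDS length. With the mean log2 total RNA of a gene, over all 10836 genes, it was -0.36. The median of that mean was 6.51 in the genes called higher and 9.53 in those called lower, against 8.10 over all genes. The part of RNA level and that of base composition were not separated. Genes were ranked by GC3 and cut into 10 bins. In the lowest bin (17.2% to 35.9%, 1056 genes) 148 were called lower and 1 higher, and the median response was -0.31. In the highest bin (81.0% to 97.5%, 1055 genes) 90 were called higher and 0 lower, with a median of 0.20. The genes called higher had a median GC3 of 76.4%, those called lower 38.8% and the rest 59.6%. By codon, the use of each of the 30 that end in A or T among codons of the same amino acid had a negative r with the response (lowest -0.58 for GAA), and 27 of 29 that end in G or C a positive one (highest 0.58 for GAG). Genes are not independent replicates, and all these values share the same 16 lysates.

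The gradient was also a property of single lysates. The slope of log2 TE on GC3, relative to each gene's mean over the 16 lysates, was between 0.02 and 0.16 per 10 percentage points in all lysates of replicates 1 and 3 and between -0.18 and -0.02 in all of replicates 2 and 4. Within each week shEIF2B1 -DOX had the lowest slope of the 4 lysates, with differences of -0.17 to -0.10 from shCTRL -DOX. Upon DOX the slope went up in shEIF2B1 in 4 of 4 weeks, by 0.10, 0.02, 0.06 and 0.07, and down in shCTRL in 4 of 4 weeks, by -0.03, -0.01, -0.08 and -0.06. The response of the slope was therefore 0.12, 0.03, 0.14 and 0.13. In RPFs it was 0.15, 0.14, 0.12 and 0.12. The low value in TE of replicate 2 came with the total RNA library of shEIF2B1 +DOX, whose slope of 0.11 lay outside the range of -0.04 to 0.04 of the other 15 total RNA libraries. Without that lysate 1653 genes were called in TE (714 higher, 939 lower), 754 of the 769 among them.

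When the gradient with CDS GC was removed from each lysate, 18 genes were called (0.171% of the 10548 with a CDS), 14 higher and 4 lower, and 16 of them were among the 769. LCN2 (1.12), SERPINA3 (1.05), GPR1 (1.17), SLC26A4 (1.12) and HID1 (0.77) of the largest rises were among them, together with the protease inhibitor SLPI (0.67), the costimulatory receptor TNFRSF9 (0.88), the selenophosphate synthetase SEPHS2 (0.74) and STK36 (0.61). ULK4 (1.00), DYNC2H1 (0.85), DPY19L2 (0.62), FAN1 (0.64) and C15orf61 (1.13) complete the higher ones. The transcripts used for ULK4 and C15orf61 have an annotated CDS of only 255 and 183 bases, against a median of 1314. Their GC content thus rests on few codons. TMSB4X (-1.17), TMEM123 (-0.84), RGS3 (-0.70) and KRT71 (-0.72) were the lower ones. The values in parentheses are TE responses with the gradient removed, and these genes were named after their values were seen. The median of hnRNP proteins was then -0.28, that of other translation factors -0.16, that of kinetochore and spindle genes -0.04, that of histones 0.05, and that of uORF mRNAs 0.20. It was -0.05 for DNA replication factors (-0.16 before removal), -0.09 for kinesin and dynein genes (-0.14 before) and -0.10 for chaperones (-0.25 before). For immediate early genes and targets of NF-kappaB it was 0.02, and for WNT genes 0.03. None of the 4 lower genes is in the lists of hnRNP proteins, translation factors, helicases, spindle genes, chaperones or proteasome subunits. Members without a matched CDS, such as HNRNPA3 and KIF11, were not in that fit. DDIT3, at 0.56, no longer passed (limma adjusted p = 0.23), and ATF4, which was not matched to a CDS here, was not included in that fit.

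The knockdown of EIF2B4, which encodes the delta subunit, shares its shCTRL lysates with the comparison above. The 8 shEIF2B4 libraries of each kind stood apart from those of both other lines, with means over all genes of 6.99 to 7.02 (log2) in RPFs, against 7.12 to 7.18 in the others, and of 7.76 to 7.78 in total RNA, against 7.79 to 7.82. The part of this in the values below was not tested. The test of the difference between both TE responses called 0 of 10836 genes in limma (665 with an unadjusted p under 0.05, 91 of them among the 769 called genes). The TE response to shEIF2B4 had a median of 0.40 over the 322 higher and -0.42 over the 447 lower genes, and 10 genes were called in it. Both responses subtract the same shCTRL change, with medians of -0.16 and 0.18 in these genes. The genes were selected with that change included, so part of the likeness is built in. ATF4 stood at 0.83 with shEIF2B1 and 0.67 with shEIF2B4, LCN2 at 1.11 and 0.87, and TMSB4X at -1.36 and -0.71. List medians, in the same order, were -0.41 and -0.14 for hnRNP proteins and -0.26 and 0.02 for other translation factors. They were -0.15 and 0.15 for large subunit ribosomal proteins. Closer medians were those of uORF mRNAs (0.32 and 0.24) and of kinetochore and spindle genes (-0.26 and -0.28). Differences by list were not tested. MFAP1, at -1.37 and -0.09, differed most among the named genes (difference -1.28, unadjusted p = 0.0015), but not after adjustment over all genes.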

How the data were processed

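The authors deduplicated the reads, aligned total RNA to GENCODE 38 protein-coding transcripts with bowtie2, quantified it with RSEM, retained 1 transcript per gene by abundance, and counted size-selected RPFs on its CDS. The submitters' processing notes name cutadapt 1.18, SAMtools 1.9 and R 4.3.1. What the authors deposited is on a log2 scale, the regularized logarithm of DESeq2, with 1 table for RPFs and 1 for total RNA. Regularization shrinks differences of low counts. No counts were given, so depth, and any precision from counting, is unknown. Replicate 3 joins reads of 2 sequencing runs.

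Log2 TE was fitted with limma 3.58.1 in R 4.3.3 on 16 lysates with replicate, shRNA, DOX and their product, eBayes with a mean-variance trend, two-sided, with Benjamini-Hochberg adjustment over all genes and calls at an adjusted p under 0.1. RPFs and total RNA were fitted alike. The replicates are separate weeks per the study's methods, and the pairing was checked: after group means were removed, 24 of 24 pairs of lysates with the same number correlated above 0.1 in log2 TE (mean r 0.591, against -0.197 for other pairs). The replicates are of 1 cell pool per line, and the block removes shifts shared by the lysates of a week. The p-values thus measure how much differences between groups varied from week to week, not a spread between pools.

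Genes were named by rule: the eIF2B subunits and genes the study names (1 of which is not reported here), the 12 largest rises and 12 largest falls with one direction in 4 of 4 weeks, up to 2 called genes each way per list, and the 2 smallest p per class of call and direction. Other called members of lists were named after their values were seen, and the read-through gene RP11-16N10.2 was then passed over for NAP1L1 when sequences were printed. The comparison, the 26 lists and the rule were chosen with earlier results of these data known. CDS and positions are from GENCODE 29 (GRCh38), matched by transcript identifier; 30.1% of genes had the same transcript version. Tested on simulated data, the TE fit recovered 89 of 100 genes changed by 1 and 18 of 100 changed by 0.5 on the log2 scale. Of the 10836 genes simulated, 5 that had been left unchanged were called. Noise was drawn for each gene separately, so beyond the week effects no shift was shared by the genes of a lysate. The number of false calls therefore does not carry over to the real lysates. Alternatives are in the closing section.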

Additional observations from a re-analysis of the deposited data

Results flagged for a closer look

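In the groups of 4 lysates, 1 lysate stood apart from the other 3 by Dixon's test in 5 of 156 groups examined, and chance flags about 1 group in 20. PPP1R15A had a log2 TE of -1.30 in replicate 2 of shEIF2B1 +DOX against -0.86 to -0.78 in the other replicates. GPR1 was at 0.34 in replicate 3 of shEIF2B1 -DOX against -0.22 to -0.14. DERPC was at 0.54 in replicate 2 of shCTRL +DOX against 1.45 or more. ZNF485 was at -8.57 in replicate 3 of shCTRL -DOX against -7.42 to -7.30. RPS24 was at -2.27 in replicate 4 of shCTRL +DOX against -3.68 to -3.45.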

How the results depend on the processing

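All 769 called genes kept their direction under each alternative that gave them a value. Several alternatives cannot change the estimate in this balanced design, and the others reuse lysates that gave the calls. The shared direction is therefore not independent support. The number called depended on the fit. Without the replicate block it was 0 in TE (280 at an unadjusted p under 0.05), 50 instead of 3038 in RPFs, 191 instead of 414 in total RNA and 0 instead of 41 for the shCTRL change (235 at an unadjusted p under 0.05). In TE it was 44 with all 24 lysates in one fit, 1857 with no shCTRL correction, 1251 with each week's change fitted, 18 with RPF and total RNA libraries not paired, 18 with the CDS GC trend removed beside the replicate block, 1653 without shEIF2B1 +DOX replicate 2 (chosen after seeing the data) and 241 at an adjusted p under 0.05. At that threshold 1963 genes were called in RPFs, 209 in total RNA and 0 in shCTRL. The shCTRL change gave 81 calls with centred libraries and 0 with no mean-variance trend (1255 at an unadjusted p under 0.05). Leaving out each replicate in turn gave 0 to 1366 calls in TE, 1529 to 2714 in RPFs, 111 to 645 in total RNA and 0 to 253 in shCTRL. Leaving out the lowest 25% of genes, no mean-variance trend and robust eBayes gave 789, 760 and 776 calls in TE. The difference between both knockdowns gave 0 calls in limma under each alternative run, with 193 to 702 genes at an unadjusted p under 0.05. The correlation with GC3 ranged from 0.42 with no shCTRL correction to 0.69. The cause of these differences between fits was not tested. The files give no counts, so what depth limits could not be assessed.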
